A study of Homo sapiens with 18 samples.

Results

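The response of empty vector U2OS cells to cytarabine is described here, from 6 of the 18 RNA sequencing libraries of the series. U2OS is an established human osteosarcoma line, and the empty vector (EV) cells carry the retroviral vector MigR1 without an insert. There were 3 replicate cultures collected untreated and 3 collected 24 h after the start of treatment with 10 µM cytarabine (Ara-C). The other 12 libraries came from U2OS lines with introduced wild-type (WT) or mutant (MUT) DNMT3A, untreated or treated in the same way, 3 replicates each. Labels differ on the mutation, R882C in the series text and R882H for the samples, and on the controls, vehicle or untreated, so the terms mutant and untreated are used. MigR1 expresses its insert from a retroviral promoter, EV cells keep their own DNMT3A gene, and nothing in the labels says whether a line is a clone or a pool. The members are all genes of the deposited table. It held 25296 genes, of which 18226 passed the low-count filter over all 18 libraries and 7070 were not tested. The labels name the replicates biological triplicates of 1 line, so p-values rest on the spread between cultures within a line. That spread was estimated jointly from all 18 libraries, EV, WT and MUT, treated and untreated, and not from the EV cultures alone.

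Cytarabine is a cytidine analogue that enters cells through nucleoside transporters. Deoxycytidine kinase starts its conversion to a triphosphate, which is built into DNA and stalls the replication fork. Stalled forks activate the ATR and CHK1 checkpoint kinases and can lead to p53 activation, which raises the cell cycle inhibitor p21, the product of CDKN1A. U2OS cells lack expression of the CDKN2A inhibitor.

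The 6 EV libraries held 15.4 to 21.9 M estimated counts, and 21860 to 22036 genes had at least 1 count in the untreated libraries against 22364 to 23603 in the treated ones. The treated replicates differed more among themselves, with a biological coefficient of variation of 0.132 against 0.0397 untreated, and no pair of replicates agreed within sampling noise. All 8 osteoblast and mesenchymal markers passed the filter, and their summed level was 3550 to 3570 counts per M untreated and 2930 to 3040 treated. The largest member was VIM, the vimentin gene, at 1940 untreated and 1180 treated. CDH2 (52.9 and 39.4) and FN1 (508 and 490) were also lower after treatment. SPARC (836 and 968), COL1A1 (166 and 260), RUNX2 (43.1 and 54.2), ALPL (11.2 and 13.7) and COL1A2 (0.429 and 2.3) were higher, so the markers did not fall as a class. As line markers, CDKN2A had 0 to 3 counts in each EV library, and MDM2 was present. ATRX, listed as a gene this line should lack, had 2888 to 3825 counts over the whole gene, which does not show whether the gene is intact. Of the haematopoietic markers 1 of 6 passed the filter, with a summed level of 0.66 to 1.74 counts per M. Summed neuronal and glial markers lay at 9.83 to 11.8 counts per M untreated and 24 to 29.1 treated, endothelial markers at 2.51 to 2.89 and 5.52 to 7.16, and epithelial markers, mostly KRT8 and KRT18, at 763 to 776 and 737 to 841. Other measures moved with treatment too. The share of counts from long noncoding genes was 0.729 to 0.743% untreated and 0.81 to 0.952% treated, that from processed pseudogenes 2.01 to 2.11% and 1.7 to 1.97%, and that from the mitochondrial chromosome 3.16 to 3.6% and 3.79 to 5.18%. Their part in the results was not tested. Bulk libraries of this kind cannot tell less RNA per cell from fewer cells of a kind.

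Cytarabine changed a large share of the transcriptome, with many low genes rising and many abundant genes falling. At an adjusted p under 0.05 (edgeR quasi-likelihood F test, Benjamini-Hochberg over all tested genes), 8940 genes or 49.1% changed, 4758 (26.1%) higher and 4182 (22.9%) lower. Values are log2 fold changes, treated over untreated, and levels are CPM, counts per M of the TMM-scaled library. The median change over all tested genes was 0.05. Direction went with abundance. Of 3038 genes with a mean log2 CPM under 0, 23% rose and 1.58% fell, whereas of 627 genes at 8 or more 6.06% rose and 65.1% fell. Among the 3985 genes at 6 or more, 13.6% rose, 50.2% fell and the median was -0.22, which is the background for lists of abundant genes below. Large changes were mostly rises, with 1974 genes higher and 239 lower by at least 1 on the log2 scale. Of the tested genes 274 had at most 3 counts in every untreated library, and 189 of them were called higher. Only 14 had at most 3 counts in every treated EV library, and 4 of them were called lower. Fold changes of such genes depend on the smallest counts. The low-count filter asks for enough counts in as many libraries as 1 group holds, so low genes can pass through treated libraries alone. How far this shapes the shares at the low end was not tested. Genes named below without their levels to complete a count or a complex, such as MCM2 or NFKB1, were chosen after their values were seen.

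**Figure D1:**
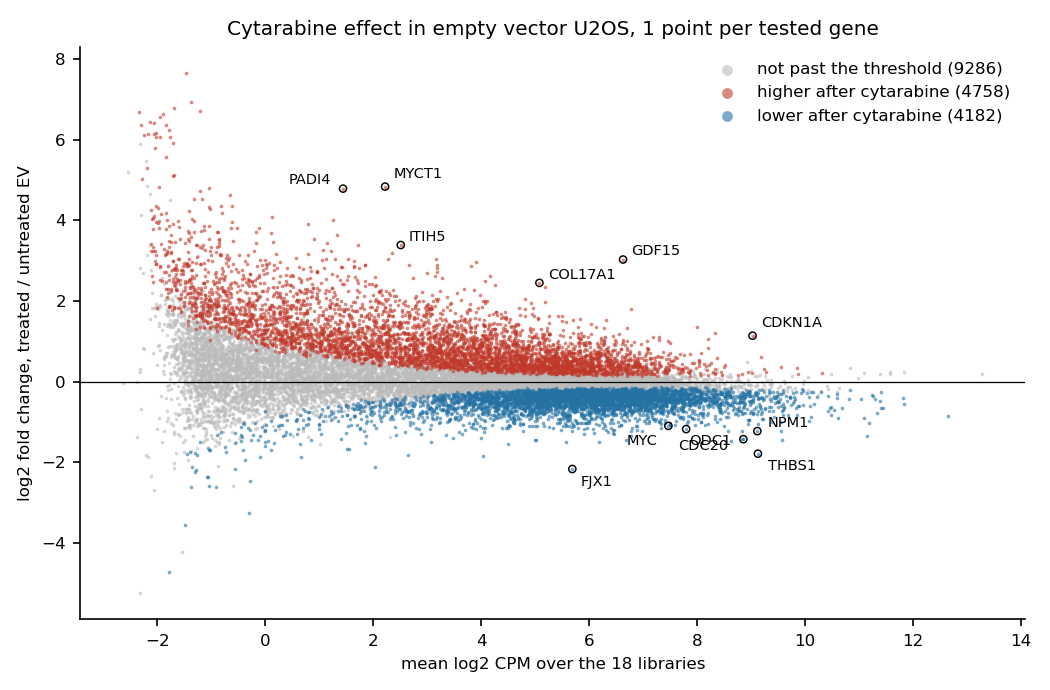
Log2 fold change (treated over untreated EV, y axis) against the mean log2 CPM over the 18 libraries (x axis) for each tested gene, with the 4758 genes called higher in red, the 4182 called lower in blue and the others in grey. Rises dominate at the low end and falls at the high end, where 65.1% of the genes with an average log2 CPM of at least 8 fell.

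The 12 largest rises among protein-coding genes with a mean log2 CPM of 1 or more and no overlap between groups were from untreated means of 0.435 to 2.45 CPM. MYCT1 (chr6:152697895-152724567, plus strand), named as a MYC target, had 0.701, 0.351 and 0.738 CPM in untreated replicates 1, 2 and 3 and 16, 18.9 and 16.8 CPM in the treated ones. PADI4 (chr1:17308195-17364004, plus strand), which converts arginine in histones and other proteins to citrulline, had 0.467, 0.467 and 0.369 CPM untreated and 13, 12.2 and 11.5 CPM treated. The groups lay far apart for both genes, with fitted changes of 4.84 (SE 0.224) and 4.79 (SE 0.214). Next in size were CEACAM1 (4.01, SE 0.253), a cell adhesion molecule of a family with similar sequences, the tight junction protein gene TJP3 (3.63, SE 0.348) and NCKAP5 (3.39, SE 0.202). ITIH5, a secreted protein that binds hyaluronan, rose from 2.4, 2.63 and 2.34 to 27.9, 23.3 and 26.1 CPM, a change of 3.39 (SE 0.145). METTL7A, CACNA1G (a T-type calcium channel), KLHDC7A, TMEM40, ALPK3 and PLEKHH2 completed the 12 with changes of 3.04 to 3.25. The edgeR adjusted p of these 12 genes ran from 6.5e-12 to 7.9e-08. Among genes with an average log2 CPM of at least 6, GDF15 rose most. It encodes a secreted stress cytokine and went from 33.9, 32.7 and 36.2 to 301, 248 and 289 CPM, an 8.16-fold rise (log2 3.03, SE 0.136).

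The other abundant genes with the largest rises were of several kinds. FLG, the epidermal protein filaggrin, rose by 1.79 (SE 0.273), and an antisense gene across it held 32.2% as many counts, so its reads may be shared. ENO2, the neuronal form of the glycolytic enzyme enolase, rose from 52.3, 48.8 and 52.6 to 166, 134 and 147 CPM (1.54, SE 0.0937). LRP1, a large endocytic receptor, rose by 1.36, FAM210B by 1.35, EPAS1, which encodes the hypoxia factor HIF-2 alpha, by 1.32 and RAB3B, a small GTPase of vesicle traffic, by 1.32. ADGRB2, SEL1L3, LAMA5 and ANKRD1 rose by 1.42, 1.17, 1.17 and 1.2. CDKN1A (chr6:36676460-36687339, plus strand) rose from 362, 354 and 360 to 798, 769 and 801 CPM, a change of 1.14 (SE 0.0607, edgeR adjusted p 9.6e-11). The rule for this set required every treated library above every untreated one, which held for 666 of the 3985 abundant genes.

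By the same rule, the largest fall was that of FJX1 (chr11:35618419-35620868, plus strand), a Golgi kinase-like gene often read as a YAP target, from 93.4, 96.5 and 91.5 to 21.7, 22.6 and 18.6 CPM (-2.17, SE 0.122). CCL4, a chemokine gene with a near-identical paralog, and TRAF1, an adaptor of TNF receptors, fell by 2.11 and 1.85. PTX3, a secreted pattern recognition protein, fell by 1.81. THBS1 (chr15:39581079-39599466, plus strand), the matrix glycoprotein thrombospondin 1, had 889, 856 and 855 CPM untreated and 212, 300 and 239 CPM treated, the largest fall among abundant genes (-1.79, SE 0.141, edgeR adjusted p 7.2e-09). XXYLT1, TAF4B, HIST1H2AC, FDXACB1, UTP20, COL5A3 and the cold-inducible RNA binding protein gene RBM3 completed the 12 with falls of 1.5 to 1.68. Among abundant genes, DHRS2 fell from 1690, 1700 and 1660 to 629, 547 and 671 CPM. ODC1, the rate-limiting enzyme of polyamine synthesis, fell from 726, 682 and 676 to 250, 263 and 260 CPM, and SLC7A5, a leucine transporter subunit, from 805, 788 and 785 to 256, 331 and 299 CPM. Treated and untreated libraries did not overlap in these genes because the rule required it. Lying wholly below the untreated libraries was common, in 5119 of all 18226 tested genes and 2300 of the 3985 abundant ones. The metallothionein genes MT2A (-1.48) and MT1E (-1.28), DPH2 (-1.34), which acts in diphthamide synthesis, the nuclear import receptor IPO4 (-1.29), CCDC86 (-1.27) and UNG (-1.25), which removes uracil from DNA, were also in this set. MT2A and MT1E belong to a family of near-identical genes, so their counts are uncertain.

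**Figure D2:**
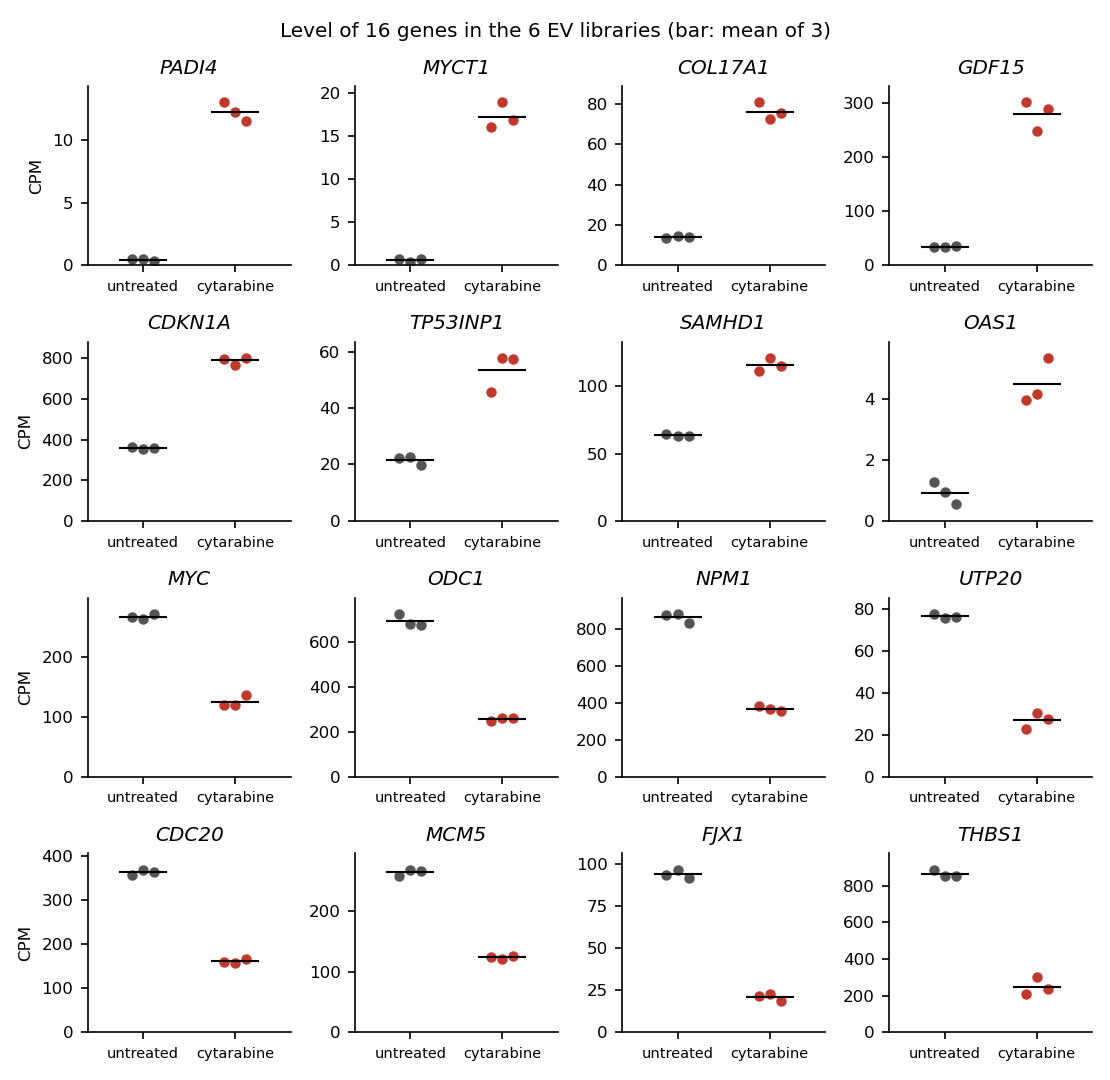
CPM (y axis, from 0) of 16 genes in the 3 untreated (grey) and 3 cytarabine-treated (red) EV libraries, with 1 point per library and a bar at the mean. For each of these genes the groups do not overlap, as for NPM1 at 830 to 881 CPM untreated and 355 to 380 treated. Of all 18226 tested genes, 5584 lay wholly above the untreated libraries after treatment and 5119 wholly below.

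Genes of ribosome assembly fell. Of 29 tested genes of ribosome biogenesis and RNA polymerase I, 28 fell and none rose, with a median of -1.01, and in the 29th, POLR1D, the change was -0.11. Of the 20 abundant ones 19 fell, against the background of 50.2%. UTP20 (chr12:101280109-101386616, plus strand), a component of the small subunit processome, went from 77.6, 75.7 and 76.1 to 22.9, 30.5 and 27.3 CPM (-1.51, SE 0.126). RRP9, which binds the U3 small nucleolar RNA, went from 96.3, 91.7 and 88.4 to 38.4, 35 and 38.8 CPM (-1.3, SE 0.0919). NPM1, the nucleolar chaperone nucleophosmin, which has processed copies that can share its reads, went from 872, 881 and 830 to 380, 364 and 355 CPM (-1.23, SE 0.0725). RRS1, an assembly factor of the large subunit, fell by 1.46. Every treated library lay below every untreated one for all 29 genes of the list, these 4 among them. The same held for 5119 of all 18226 tested genes and 2300 of the 3985 abundant ones. MYC, a transcription factor known for driving ribosome production, fell from 266, 263 and 272 to 119, 119 and 137 CPM (-1.1, SE 0.0865, edgeR adjusted p 7.3e-09).

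The promoters of UTP20 and RRP9 are shown because MYC and its partner MAX are known to bind the E-box CACGTG. This motif was added after the data were seen. The sequences run 5′ to 3′ from 170 bases before to 30 bases after the transcription start of RefSeq, assembly GRCh38.p14, with the motif in capitals.
UTP20 (chr12:101279935-101280134, plus strand): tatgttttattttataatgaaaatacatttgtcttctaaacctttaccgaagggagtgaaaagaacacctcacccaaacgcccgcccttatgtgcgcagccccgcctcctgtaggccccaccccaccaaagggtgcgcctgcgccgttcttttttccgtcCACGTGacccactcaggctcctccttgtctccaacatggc
RRP9 (chr3:51941875-51942074, minus strand): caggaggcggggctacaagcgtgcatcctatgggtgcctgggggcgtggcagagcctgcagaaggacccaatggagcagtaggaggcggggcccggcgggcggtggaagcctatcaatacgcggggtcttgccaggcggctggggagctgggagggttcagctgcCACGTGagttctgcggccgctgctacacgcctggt
The E-box, searched on both strands from 250 bases before to 50 after the start, occurred in 7 of the 23 promoters at hand for this list (30.4%). It occurred in 7.43% of all 27305 promoters and in 9.81% of those of tested genes. All 7 genes of this list with the motif fell, as did the others that were called, and the medians with and without the motif were -1.07 and -0.89. The motif was not particular to this list. In autophagy and lysosome genes it occurred in 7 of 27 promoters (25.9%), and 3 of those 7 genes rose and none fell. In the other lists searched the share ran from 0% (clustered histone genes) to 17.9% (p53 targets). A match describes letters only.

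Other parts of the protein synthesis and breakdown machinery fell as well. Of 82 cytosolic ribosomal protein genes, 63 fell and 2 rose (median -0.34), and of the 75 abundant ones 60 fell. RPS2 went from 1740, 1700 and 1580 to 1080, 1140 and 1020 CPM (-0.63, SE 0.0832), and RPL9 fell by 0.67. The 2 that rose were RPS27L (0.37), a p53-responsive paralog, and RPL39L (0.44), a paralog known from testis. Ribosomal protein genes have many processed copies, so single values are uncertain. Of 20 cytosolic aminoacyl-tRNA synthetases, which charge tRNAs with amino acids, 17 fell (median -0.4). VARS fell by 0.8, KARS by 0.78, FARSA by 0.74 and FARSB by 0.68, while QARS rose by 0.26. All 20 are abundant genes, so the background is the 50.2% given above.

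Of 46 proteasome subunits, 40 fell (median -0.48), among them 34 of the 36 abundant ones. PSMD11 went from 303, 313 and 284 to 181, 183 and 177 CPM (-0.73, SE 0.066), PSMD3 fell by 0.71 and PSMC1 by 0.94. The 2 subunits that rose, PSMB9 (1.44, SE 0.133) and PSMB8 (0.48), are interferon-inducible catalytic subunits of the immunoproteasome. PSMB10, another inducible catalytic subunit, fell by 0.52 (SE 0.126), so these subunits did not rise as a class. PSMB9 and PSMB8 overlap each other and TAP1 in the table. Host genes of small nucleolar RNAs, which guide the modification of ribosomal RNA, fell in 16 of 24 cases and rose in 2 (median -0.66). SNHG1 had 83.1, 89.1 and 89.2 CPM untreated and 48.6, 28.2 and 49.3 CPM treated (-1.04, SE 0.236), with treated replicate 2 lowest. The mean change of the list in that library was -0.94, against -0.28 and -0.49 in treated replicates 1 and 3. SNHG15 fell by 1.11 and SNHG18 rose by 1.15.

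**Figure D3:**
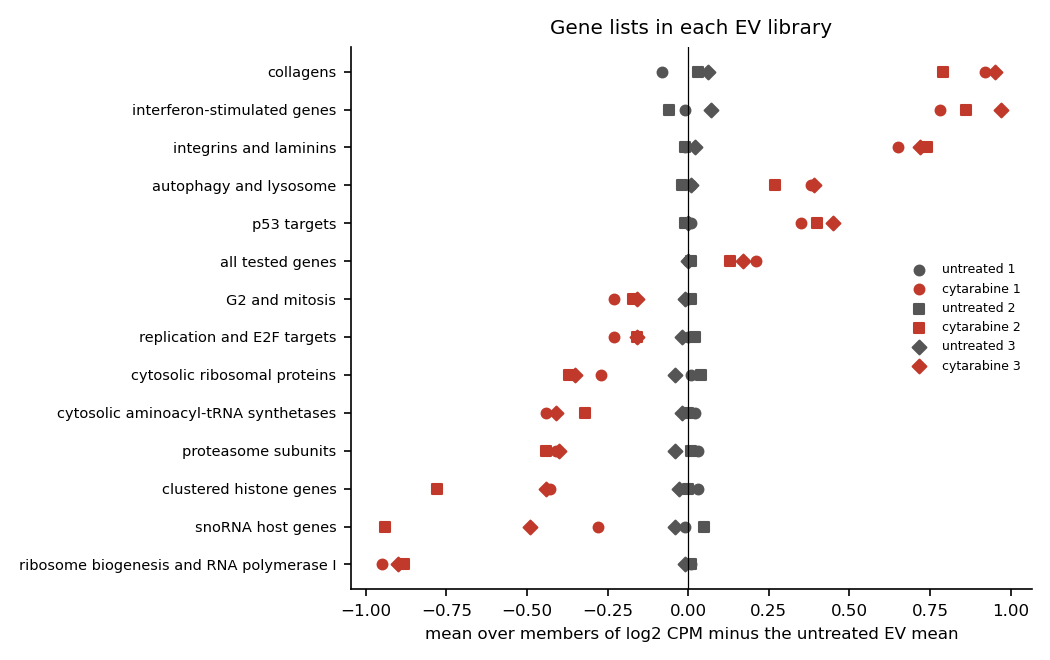
Gene lists (y axis) against the mean over their members of log2 CPM minus the mean of the untreated EV libraries (x axis), with 1 symbol per library, grey untreated and red treated. Ribosome biogenesis lies at -0.88 to -0.95 in the 3 treated libraries and all tested genes at 0.13 to 0.21, while snoRNA hosts run from -0.94 to -0.28 and clustered histones from -0.78 to -0.43 in the treated libraries.

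More p53 targets rose than fell, while 3 of its known pro-apoptotic targets did not pass the threshold. Of 34 tested targets, 21 rose and 1, PLK2 (-0.42), fell, with a median of 0.38 against 0.05 over all genes. CMBL rose by 1.32 (SE 0.0874), and TP53INP1, which promotes autophagy and cell death, from 22.3, 22.7 and 19.8 to 45.6, 57.7 and 57.4 CPM (1.31, SE 0.0959). KITLG, the ligand of the receptor KIT, rose by 1.19. MDM2, the ubiquitin ligase that degrades p53, had 243, 248 and 249 CPM untreated and 265, 381 and 348 CPM treated (0.43, SE 0.115, edgeR adjusted p 0.00448), with treated replicate 1 close to the untreated range. FAS, a death receptor, rose by 0.57 (SE 0.094). BBC3, BAX and PMAIP1, which promote apoptosis, had values of 0.09, -0.07 and -0.05, and none passed.

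Cell cycle inhibitors and cyclins did not move one way. Beside CDKN1A, the inhibitors CDKN2D (0.88) and CDKN2B (0.82) rose, while CDKN1B fell by 0.27. The G1 kinase gene CDK4 fell from 331, 335 and 332 to 202, 215 and 208 CPM (-0.68, SE 0.0784). CCNA2, the S and G2 cyclin, fell by 0.52 and CCNB1, the mitotic cyclin, by 0.36. The G1 cyclins CCND1, CCNE1 and CCNE2 had changes of 0.02, 0.15 and 0.16, with edgeR adjusted p of 0.897, 0.0712 and 0.39. CCND1 had 325, 328 and 329 CPM untreated and 294, 371 and 329 CPM treated, so the groups overlapped. Among 23 genes of this list 7 rose and 9 fell.

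Replication genes that passed the test mostly fell. Of 45 replication and E2F target genes 17 fell and 2 rose (median -0.12), and of the 31 abundant ones 13 fell, a share below the 50.2% background. All 6 subunits of the MCM2-7 helicase, which unwinds DNA at the fork, were among those that fell, with 11 others such as TIPIN (-0.74), UHRF1 (-0.73) and the polymerase subunit genes POLE2 (-0.61) and POLD2 (-0.55). MCM5 (chr22:35400063-35425430, plus strand) went from 259, 269 and 267 to 124, 122 and 127 CPM (-1.09, SE 0.0548, edgeR adjusted p 4.3e-11). MCM7 fell by 0.84, MCM6 by 0.76, MCM2 by 0.57, MCM3 by 0.44 and MCM4 by 0.41. PCNA, the sliding clamp, had 246, 232 and 235 CPM untreated and 213, 208 and 224 CPM treated, and its change of -0.15 did not pass (edgeR adjusted p 0.318). The proliferation marker MKI67 overlapped between groups, with 422, 476 and 482 against 366, 510 and 407 CPM.

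Of 47 genes of G2 and mitosis 23 fell and 3 rose (median -0.2). Of the 36 abundant ones 20 fell, near the background of abundant genes. A pair of regulators stood below the rest. CDC20, an activator of the anaphase-promoting complex, went from 357, 369 and 364 to 159, 157 and 166 CPM (-1.18, SE 0.0809). PLK1, a mitotic kinase, went from 159, 161 and 159 to 83.4, 83 and 81.8 CPM (-0.95, SE 0.0619). The next largest falls in the list were those of AURKA (-0.46) and KIF20A (-0.45). TOP2A, which untangles DNA, rose by 0.25 (SE 0.0737), as did KIF14 (0.2) and NUSAP1 (0.15). CDK1, the mitotic kinase, had 241, 218 and 234 CPM untreated and 257, 267 and 293 CPM treated (0.24, edgeR adjusted p 0.0546).

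The promoters of CDC20, PLK1 and MCM6 are shown because they carry the elements these classes are known for. Capitals mark the cell cycle homology region TTTGAA and CCAAT boxes in the first pair, and the E2F motif TTTGGCGC in MCM6, in the same window as above and from the same source.
CDC20 (chr1:43358811-43359010, plus strand): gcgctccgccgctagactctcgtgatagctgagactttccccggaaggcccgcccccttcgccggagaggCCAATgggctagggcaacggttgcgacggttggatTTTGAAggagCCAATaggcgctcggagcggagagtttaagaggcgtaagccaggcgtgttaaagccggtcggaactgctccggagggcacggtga
PLK1 (chr16:23678719-23678918, plus strand): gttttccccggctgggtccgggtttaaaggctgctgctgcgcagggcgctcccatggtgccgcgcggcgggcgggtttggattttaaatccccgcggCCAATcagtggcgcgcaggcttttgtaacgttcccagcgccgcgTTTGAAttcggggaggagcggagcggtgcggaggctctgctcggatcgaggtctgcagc
MCM6 (chr2:135876414-135876613, minus strand): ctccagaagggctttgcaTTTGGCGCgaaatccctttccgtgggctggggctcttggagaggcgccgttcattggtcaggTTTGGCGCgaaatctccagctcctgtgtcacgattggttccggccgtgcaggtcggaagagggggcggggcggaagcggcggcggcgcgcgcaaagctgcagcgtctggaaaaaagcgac
On both strands, TTTGAA occurred in 25 of the 40 G2 and mitosis promoters at hand (62.5%) and in 15.4% of all promoters, and CCAAT in 72.5% and 35.7%. An E2F motif (TTTCCCGC or TTTGGCGC) occurred in 18 of 38 replication promoters (47.4%) and in 2.31% of all. Median changes with and without TTTGAA were -0.19 and -0.17 in G2 and mitosis genes, and with and without an E2F motif -0.14 and -0.14 in replication genes. With and without CCAAT they were -0.23 and -0.15 in G2 and mitosis genes and -0.21 and -0.02 in replication genes. These differences were not tested.

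In 3 lists of chromatin genes more members fell than rose. Of 17 tested clustered histone genes, the replication-dependent kind whose transcripts largely lack a poly(A) tail, 8 fell and 1, HIST1H2AG (0.3), rose (median -0.53). HIST1H2AC went from 26.5, 31.5 and 28.3 to 9.39, 8.49 and 11.5 CPM (-1.54, SE 0.189), and HIST1H2BK and the linker histone gene HIST1H1C fell by 1.15 and 0.91. These genes have near-identical copies and their values are uncertain. No clustered histone gene tested had a mean log2 CPM of 6 or more. Replacement histone genes fell in 7 of 11 cases, which were the 7 abundant ones, with H3F3B at -0.7, H2AFX at -0.42 and H2AFZ at -0.4. Of 30 Polycomb subunits, which place repressive histone marks, 18 fell and 4 rose (median -0.24), and of the 13 abundant ones 9 fell against 50.2%. PHF19 fell from 87.6, 85 and 87.9 to 45.8, 51.3 and 46.6 CPM (-0.86, SE 0.0787), L3MBTL2 by 0.67 and the methyltransferase EZH2 by 0.38, while CBX7 rose by 0.47. The nuclear lamin gene LMNB1, whose loss is a known mark of senescence, fell from 258, 268 and 253 to 134, 129 and 136 CPM (-0.97, SE 0.0705).

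DNA methylation enzymes split by kind. DNMT1, which maintains methylation after replication, fell from 271, 276 and 279 to 192, 189 and 198 CPM (-0.51, SE 0.0762), and its partner UHRF1 fell by 0.73. The de novo enzymes rose, DNMT3A from 26.9, 27.5 and 26.2 to 47.1, 49.6 and 45.5 CPM (0.82, SE 0.198) and DNMT3B by 0.32. The TET1 demethylase gene rose by 0.94 and TET3 fell by 0.53. Germline genes that methylation keeps silent in most tissues did not rise together, since 5 of 27 rose and 10 fell. MAGEA4, high in this line, fell from 750, 730 and 710 to 380, 445 and 454 CPM (-0.78, SE 0.0902), and MAGEA12 fell by 0.53, while the meiosis genes DMC1 and STAG3 rose by 0.73 and 0.7.

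Genes that take up and process cytarabine changed in both directions. Of 21, 5 rose and 9 fell, 23.8% and 42.9%, against 26.1% and 22.9% of all tested genes. Of the 10 abundant ones 5 fell, near the background of 50.2%. SLC29A1, the equilibrative transporter, fell from 134, 131 and 130 to 94.3, 88.9 and 91.1 CPM (-0.52, SE 0.0678). DCK, which starts activation, had 71, 74 and 69.5 CPM untreated and 59.4, 69.1 and 71.5 CPM treated, and the groups overlapped (-0.1, edgeR adjusted p 0.434). CDA, which inactivates the drug by deamination, rose from 6.72, 5.43 and 7.01 to 11, 10.8 and 13.2 CPM (0.87, SE 0.153). SAMHD1, which breaks down the drug's triphosphate, rose from 64.8, 62.9 and 63 to 111, 121 and 115 CPM (0.86, SE 0.0704). The nucleotidase gene NT5C2 fell by 0.26. AK3, a mitochondrial adenylate kinase, rose by 1.18. Of 20 genes of nucleotide supply 12 fell and 6 rose, and of the 16 abundant ones 11 fell. RRM2B, the p53-induced subunit of ribonucleotide reductase, rose from 239, 248 and 250 to 414, 473 and 437 CPM (0.84, SE 0.0653). The S phase subunit RRM2 stood at 427, 415 and 413 against 444, 474 and 480 CPM, and its change of 0.16 did not pass (edgeR adjusted p 0.0513). CTPS2, a CTP synthase, rose by 1.09, and DHODH (-0.88), DUT (-0.65) and TYMS (-0.25), which act in pyrimidine synthesis and thymidylate supply, fell.

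Checkpoint and repair genes changed in few cases. Of 48, 11 fell and 6 rose, and the other 31 did not pass (median -0.02). The share that fell, 22.9%, equalled that of all tested genes, and 12.5% rose against 26.1%. HUS1, part of the checkpoint clamp, fell by 0.88, the fork protection factor TIPIN by 0.74, ATRIP, the partner of ATR, by 0.74 and NBN by 0.74. CHEK1, the kinase that ATR activates, fell from 50.7, 54.7 and 51.7 to 34.8, 36 and 37.3 CPM (-0.54, SE 0.0664); STT3A, which overlaps it, held 355% as many counts. WEE1, which restrains CDK1, did not pass (-0.09). Of 15 translesion and repriming polymerase genes 4 rose, POLN (0.73), POLQ (0.51), POLH (0.45) and POLL (0.24), and 1, REV1 (-0.21), fell. The share that rose, 26.7%, was near the 26.1% of all tested genes, and 6.67% fell against 22.9%. Without treated replicate 2 or untreated replicate 3 the count of rises was 2. POLQ joins broken ends and POLH copies past damaged bases. PARP1, which marks DNA breaks with poly(ADP-ribose), fell from 356, 371 and 381 to 242, 257 and 240 CPM (-0.58, SE 0.0699), and PARP10, PARP3 and PARP14 rose by 0.76, 0.63 and 0.56. With the authors' library factors 5 of the 16 family members rose and 6 fell, against 6 and 3 here.

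**Figure D4:**
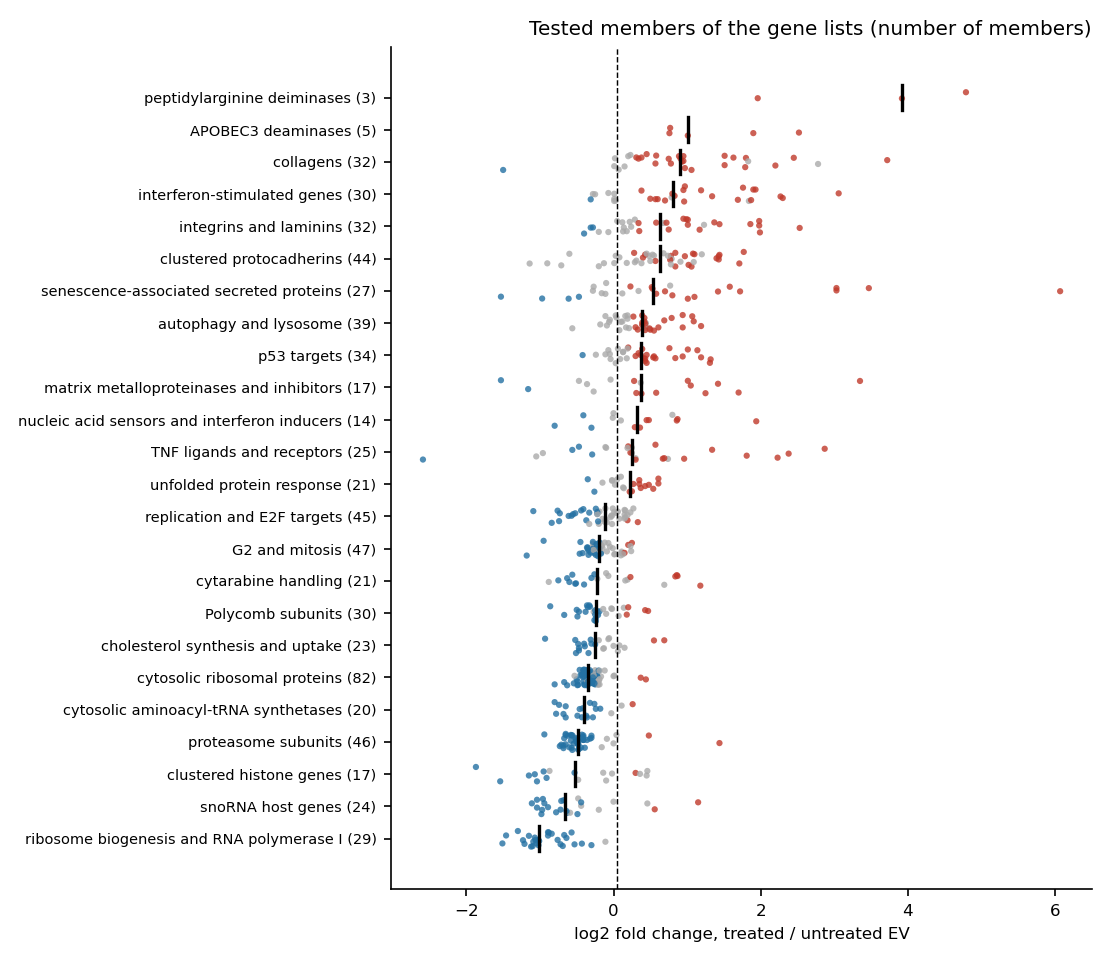
Log2 fold change (treated over untreated EV, x axis) of each tested member of 24 gene lists (y axis, number of members in parentheses), red where called higher, blue where called lower and grey otherwise. Black bars are list medians and the dashed line is the median of 0.05 over all tested genes, and the bars run from -1.01 for ribosome biogenesis to 3.92 for the peptidylarginine deiminases.

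Interferon-stimulated genes rose from low levels. Of 30 tested, 20 rose and 1, IRF1 (-0.31), fell, with a median of 0.81, and only 2 of them had an average log2 CPM of at least 6. OAS1, which senses double-stranded RNA, rose from 1.29, 0.935 and 0.553 to 3.96, 4.18 and 5.35 CPM (2.27, SE 0.248). SAMD9L and SAMD9, antiviral factors, rose by 1.69 and 1.19, the latter from 22.1, 21.1 and 22.9 to 40.2, 59.6 and 51.6 CPM. STAT2, a signal carrier of type I interferon, rose by 0.97 (SE 0.0945). ISG15, a ubiquitin-like protein, rose by 0.6 (SE 0.182, edgeR adjusted p 0.00997). MX1 and the IFITM2 and IFITM3 genes, also classical members, did not pass at -0.28, 0.01 and 0.01.

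The promoters of ISG15 and SAMD9 are shown because both genes rose and carry GAAANNGAA, the core of the interferon-stimulated response element, in capitals where runs of overlapping matches join. The window and source are those given for the promoters above.
ISG15 (chr1:1013327-1013526, plus strand): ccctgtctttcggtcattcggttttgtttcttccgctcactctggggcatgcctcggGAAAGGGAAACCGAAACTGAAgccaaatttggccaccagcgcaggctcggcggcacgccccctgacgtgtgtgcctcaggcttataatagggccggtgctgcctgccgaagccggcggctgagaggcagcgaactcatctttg
SAMD9 (chr7:93117950-93118149, minus strand): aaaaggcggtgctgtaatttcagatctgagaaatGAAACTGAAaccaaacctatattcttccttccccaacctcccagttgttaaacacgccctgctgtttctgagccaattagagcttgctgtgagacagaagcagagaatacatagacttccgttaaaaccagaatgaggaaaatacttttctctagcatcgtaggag
The motif occurred on either strand in 16 of the 23 promoters of this list at hand (69.6%) and in 8.29% of all promoters. Members with and without it had medians of 0.79 and 0.95.

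Genes next to this pathway moved less evenly. Of 14 sensors and interferon inducers 7 rose and 3 fell. TLR3, an endosomal sensor of double-stranded RNA, rose from 2.04, 1.87 and 3.32 to 7.43, 10.5 and 9.92 CPM (1.94, SE 0.195), and TMEM173, which encodes STING, by 0.86. IKBKE, a kinase that activates interferon genes, fell by 0.8. All 5 tested APOBEC3 cytidine deaminases rose (median 1.01). APOBEC3C went from 59.2, 60.2 and 58.2 to 104, 131 and 122 CPM (1.01, SE 0.0879), and APOBEC3B, which acts in the nucleus, from 37.3, 39.5 and 37.6 to 58.1, 70 and 66.1 CPM (0.76, SE 0.0775). Reads of this family can be split between similar copies. Of 16 antigen presentation genes 7 rose and 3 fell, with HLA-F at 1.25 and the peptide transporter gene TAP1 at 0.74. B2M, the light chain of MHC class I, did not pass, with 451, 453 and 465 CPM untreated and 496, 382 and 517 CPM treated.

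Matrix and adhesion genes rose. Of 32 tested collagens 23 rose and 1 fell (median 0.9), and of the 8 abundant ones 6 rose against the background of 13.6%. COL17A1 (chr10:104031286-104085957, minus strand), a hemidesmosome collagen, rose from 13.6, 14.3 and 14 to 80.8, 72.5 and 75.3 CPM (2.45, SE 0.102, edgeR adjusted p 6.4e-12). COL11A1, a fibrillar cartilage collagen, rose from 17.2, 16.1 and 18.8 to 61.5, 57.4 and 60.9 CPM (1.79, SE 0.0943), and the basement membrane collagens COL4A5 and COL4A4 by 1.8 and 1.63. COL5A3 fell by 1.5. Bone collagen COL1A1 rose from 168, 178 and 184 to 258, 223 and 240 CPM (0.45, SE 0.1). Of 32 integrins and laminins, which join cells to that matrix, 17 rose and 3 fell (median 0.63). ITGA7, a laminin receptor, rose from 9.41, 10.4 and 10.3 to 44.2, 34.6 and 40.8 CPM (1.99, SE 0.111). ITGB4, the hemidesmosome partner of COL17A1, rose by 1.86, ITGAX by 2.53 and LAMA2 by 1.37. The genes BLOC1S1 and GALK1, which overlap ITGA7 and ITGB4, held 233% and 307% as many counts. Of 17 matrix metalloproteinases and inhibitors 10 rose and 2 fell, with MMP3, MMP15 and MMP19 at 1.42, 1.25 and 1.05 and MMP9 at -1.16.

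Secreted factors rose in part. Of 27 tested genes of a senescence-associated list 15 rose and 4 fell (median 0.53). LMNB1, which is in this list as a nuclear protein that falls in senescence, was among the 4. The epidermal growth factor ligand AREG rose from 11.2, 12.9 and 13.3 to 44.4, 36.7 and 42.2 CPM (1.72, SE 0.145) and EREG by 1.1. IL11 rose by 1.41 (SE 0.0905), while IL6 did not pass (0.77). The NF-kB list was split, with 9 higher and 12 lower of 28. The members that fell included subunits and inhibitors of the pathway itself, RELB (-1.11), NFKB1 (-1.05), RELA (-0.31), NFKBIA (-1.1) and TNFAIP3 (-0.83), and the cytokine genes CCL2, CCL4 and LIF. Those that rose were the cytokine genes IL1A, IL1B, IL11, CXCL8, CCL20, CSF1 and CSF2 together with TNFAIP2 and the prostaglandin enzyme gene PTGS2. Of 25 TNF ligands and receptors 12 rose and 4 fell. NGFR rose by 2.38, TNFRSF14 by 2.23, TNFSF15 by 1.34 and CD70 from 87, 91.4 and 87.6 to 157, 120 and 153 CPM (0.69, SE 0.119).

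Stress pathways differed in direction. Of 39 autophagy and lysosome genes 21 rose and none fell (median 0.39), and of the 19 abundant ones 9 rose against 13.6%. GABARAPL1, which coats autophagosomes, rose from 57.5, 58.8 and 62.7 to 137, 106 and 131 CPM (1.07, SE 0.0903). ATG4A, ATG16L2 and WIPI1, which act in autophagosome formation, rose by 1.19, 1.09 and 0.94. Of 21 genes of the unfolded protein response 11 rose and 2 fell (median 0.22), with EDEM1, CRELD2 and PDIA4 at 0.61, 0.61 and 0.54, while the chaperone HSPA5 did not pass (0.14). The integrated stress response list was split, with 9 higher and 12 lower of 30. Its regulator ATF4 fell from 584, 570 and 574 to 469, 367 and 407 CPM (-0.48, SE 0.0864), and ATF5 fell by 1.07, while ATF3 rose by 0.8 and STC2 by 1.11. NUP62, which overlaps ATF5, held 331% as many counts. Of 18 heat shock genes 8 fell and 4 rose, and of the 16 abundant ones 8 fell, near the background of 50.2%. HSP90AB1, which has processed copies, fell from 3520, 3600 and 3590 to 1930, 2150 and 2120 CPM (-0.79, SE 0.062), the mitochondrial chaperones HSPE1 and HSPD1 fell by 0.68 and 0.61, and the small heat shock protein gene CRYAB rose by 1.11.

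Survival and immediate early genes showed no common direction. Among 17 BCL2 family genes 4 rose and 4 fell, 23.5% each, near the 26.1% and 22.9% of all tested genes. BCL2L1, which protects from apoptosis, rose from 230, 223 and 216 to 302, 311 and 308 CPM (0.46, SE 0.0574), whereas MCL1, also protective, fell from 362, 351 and 356 to 264, 290 and 270 CPM (-0.38, SE 0.0574). The pro-apoptotic genes BMF and HRK rose by 1.06 and 0.71, and BOK fell by 0.41. Of 25 AP-1 and EGR genes 6 rose and 9 fell. JUN fell from 323, 314 and 318 to 219, 223 and 231 CPM (-0.51, SE 0.0798) and FOSL1 by 0.91, while NR4A3 rose by 0.97. FOS overlapped between the groups (0.25, edgeR adjusted p 0.471).

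In 4 metabolic lists more genes fell than rose, at shares of abundant members near or below the background in 3 of them. Of 23 cholesterol genes 12 fell and 2 rose (median -0.25), and of the 12 abundant ones 6 fell against 50.2%. HMGCS1, an early enzyme of the pathway, fell by 0.52, while STARD4, a cholesterol carrier, rose by 0.69. Of 13 fatty acid genes 7 fell, among them 6 of the 11 abundant ones, with the desaturase gene SCD at -0.74 and the synthase gene FASN at -0.72. In the glycolysis and hypoxia list 12 of 27 fell and 6 rose, and the 12 were all among its 19 abundant members. The core enzymes ENO1 (-0.91), HK2 (-0.87), PKM (-0.65) and LDHA (-0.61) fell, while ENO2, the glucose transporter gene SLC2A3 (1.25), PFKFB4 (1.15) and the oxygen sensor gene EGLN3 (1.05) rose. Of 79 nuclear genes of oxidative phosphorylation 22 fell and 2 rose, and 16 of the 59 abundant ones fell against 50.2%, with NDUFAB1 at -0.64 and CYC1 at -0.59. None of 15 mitochondrially encoded genes passed, at a median of 0.2.

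Several families outside these pathways held large rises. The 3 tested peptidylarginine deiminases all rose, with PADI3 and PADI1 at 3.92 and 1.96 beside PADI4. Of 20 keratins 7 rose and 2 fell, KRT34 from 3.97, 4.09 and 3.87 to 19.7, 18.7 and 20.3 CPM (2.3, SE 0.153) and KRT15 by 1.51, while KRT18 fell by 0.44. Of 44 clustered protocadherins 19 (43.2%) rose and none fell (median 0.63), and without treated replicate 3 the count was 11. None had a mean log2 CPM of 6 or more, and low genes often rose. Of all tested genes at 0 to 2 on that scale 32.5% rose and 3.99% fell, and at 2 to 4 38.5% and 13.1%. The protocadherins share exons and their reads cannot be told apart well. Of 25 YAP targets 10 fell and 2 rose, with ANKRD1 up from 224, 207 and 222 to 457, 511 and 530 CPM (1.2, SE 0.0888) and FRMD6 down from 460, 444 and 443 to 241, 232 and 235 CPM (-0.93, SE 0.0621), so members of 1 list moved in opposite directions. Of the 17 abundant YAP targets 6 fell, against 50.2% of all abundant genes. Of 31 TGF-beta and BMP genes 3 rose and 7 fell, 9.68% and 22.6%, against 26.1% and 22.9% of all tested genes. The share that fell was thus near that of all tested genes. The BMP antagonist NOG fell from 108, 103 and 98.8 to 45.4, 45.4 and 45.5 CPM (-1.19, SE 0.0817), and the ligands INHBE and BMP7 rose by 1.98 and 1.15. Of 36 kinesins 9 rose and 12 fell, 25% and 33.3%, against 26.1% and 22.9% of all tested genes. The neuronal motor genes KIF5C (1.37) and KIF5A (0.72) rose. Mitotic ones went both ways, with KIF20A lower and KIF14 higher. Of 11 osteoblast genes 3 rose and 2 fell, 27.3% and 18.2%, near the shares of all tested genes. Of 456 genes with ZNF symbols 104 rose and 64 fell, and with the authors' library factors 84 rose and 93 fell.

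Gene type and size went with the response as well. Processed pseudogenes rose in 3.42% and fell in 15.9% of 1022 cases, whereas 25.4% of 878 lincRNA genes rose and 6.49% fell. Among 14309 protein-coding genes Spearman's rho between the change and the span of the gene was 0.084, across genes, which share libraries and differ in abundance. Of the 1225 genes spanning at least 200 kb, 37.9% rose and 15.1% fell (median 0.23), and of the 1225 under 5 kb 21.6% rose and 26.9% fell (median -0.03). In genes with an average log2 CPM of at least 4 the shares were 27.8% and 25.7% for the long and 12.5% and 45.4% for the short ones. By chromosome the share of rises ran from 20.6% on chromosome 13 to 28.6% on chromosome 12, leaving out the mitochondrial genes.

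Whether the EV response differed from that of the DNMT3A lines was tested as the EV change minus the mean of the WT and MUT changes. There were 22 genes, 0.121% of those tested, that passed (edgeR quasi-likelihood F test, adjusted p), 7 with a higher and 15 with a lower value in EV, and 2193 had an unadjusted p under 0.05. DDR2, a collagen receptor, had 0.57 for EV on the log2 scale, against 1.52 for WT and 2.11 for MUT, a difference of -1.25 (SE 0.143, edgeR adjusted p 7.6e-04). GDF15 had 3.03, 4.21 and 3.89 in the same order (difference -1.02, SE 0.16). HIST1H2BK had -1.15 in EV against -2.25 and -2.37 (difference 1.16, SE 0.209). The cyclin gene CCNE2, whose reads may be shared with the overlapping INTS8, had 0.16, 1.09 and 1.05 (difference -0.91, SE 0.175). CHAC1, a stress-induced enzyme that degrades glutathione, fell in EV (-0.32), while its values in the other lines were 0.85 and 0.37. Of the 22 genes DDR2 and CAVIN2 (0.33 in EV, 0.68 and 1.09) passed in all 18 fits that left out 1 library. Those fits called 3 genes without treated EV replicate 1 and 71 without untreated MUT replicate 1 or 3, so the count depends on single libraries. None of these counts shows that the other genes responded alike.

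**Figure D5:**
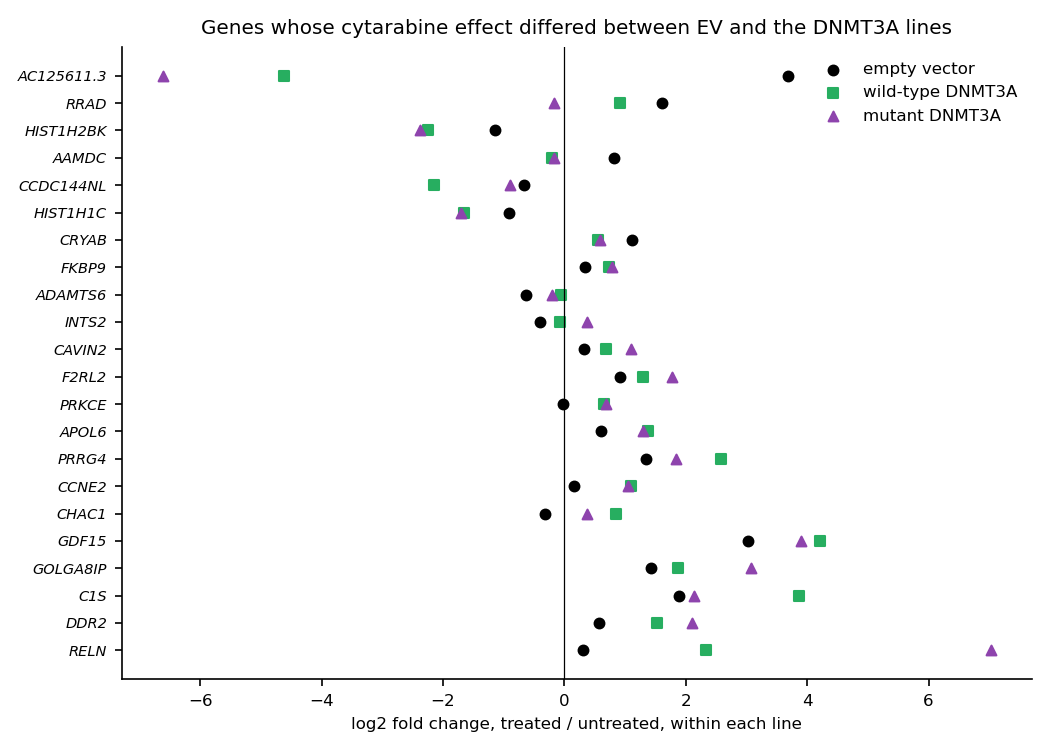
Log2 fold change (treated over untreated, x axis) in the EV (black), WT (green) and MUT (purple) lines for the 22 genes (y axis) whose EV change differed from the mean of the other lines. DDR2 lies at 0.57 in EV against 1.52 and 2.11, and HIST1H2BK at -1.15 against -2.25 and -2.37.

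Overlaps in the table limit single genes. Of the 253 genes chosen by the naming rule, 123 overlap another gene, and for 63 an overlapping gene held at least 10% as many counts. Beside those given above these include LAMA5 with ADRM1 (225%), PARP10 with GRINA (490%), POLN with HAUS3 (938%), POLH with GTPBP2 (86.7%), DCK with MOB1B (111%) and KIF20A with BRD8 (87%). Whether the counting used strand is not given in the sources used here.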

How the data were processed

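Total RNA libraries of U2OS lines were sequenced and mapped with STAR 2.6.1d to hg38 after CASAVA, per the submitters' processing notes. The counting tool and its use of strand are not given in the sources used here. The deposited table holds estimated counts per gene (70.4% whole numbers), with no gene under 10 counts in all. A second deposited table of 19591 genes holds a normalized signal, which the authors made as 1 plus a library factor times the estimated count. That factor was used as an alternative scaling. 26 gene symbols had become dates and are not named.

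Counts were rounded and tested in R 4.3.3 with edgeR 4.0.16 (filterByExpr, TMM, quasi-likelihood F test, 6 group coefficients over all 18 libraries, Benjamini-Hochberg, adjusted p under 0.05). The second contrast was the EV effect minus the mean of the WT and MUT effects. Alternatives included DESeq2 1.42.0, the authors' factors, other filters, a replicate block and leaving out each library. The test of the EV effect was also run on simulated data, with levels and spread taken from the fit of the real libraries. Far fewer genes were changed there than were called in the data. The gene lists, their members and the naming rule were chosen with earlier results of these data known.

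Named genes were the 12 largest rises and falls among protein-coding genes with an average log2 CPM of at least 1 and no overlap between groups, the same at 6 or more, the 4 largest called changes of each list, the 5 largest differences between lines in each direction, and a set of marker genes whatever their values. The E-box search was added later. A few genes of the naming rule are not reported here.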

Additional observations from a re-analysis of the deposited data

Results flagged for a closer look

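For 12 genes chosen by the naming rule, the cytarabine effect in EV differed from the mean effect in the DNMT3A lines by the test of the difference itself (edgeR quasi-likelihood F test, adjusted p). Values are log2 differences, EV minus that mean. The EV value was lower for the collagen receptor gene DDR2 (-1.25), the complement protease gene C1S (-1.12), GOLGA8IP (-1.05), the stress cytokine gene GDF15 (-1.02), CHAC1 (-0.93) and the cyclin gene CCNE2 (-0.91). It was higher for RRAD (1.22), HIST1H2BK (1.16), AAMDC (1.00), CCDC144NL (0.84), HIST1H1C (0.78) and the small heat shock protein gene CRYAB (0.53). DDR2 passed in 18 of 18 fits that left out 1 library, GDF15 in 16 and AAMDC in 15, while RRAD and C1S passed in 3. C1S shares its span with EMG1 and LPCAT3, which held 599% and 402% as many counts, and AAMDC with INTS4 at 396%. GOLGA8IP and the histone genes have near-identical copies. The part of these overlaps in the differences was not tested.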

How the results depend on the processing

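The count of 8940 changed genes lay between 7633 and 9201 with another scaling, filter, tool or block. It was 9206 in a fit of only the 6 EV libraries, and between 7839 and 8377 without 1 EV library. With a change of at least 1 on the log2 scale it was 2213. The authors' library factors moved the share of rises among called genes from 53.2% to 45.2%. In every fit without 1 EV library 6703 of the 8940 genes were called, as were 232 of the 239 called named genes.

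The 22 genes of the difference between lines became 128 with DESeq2, 9 with a replicate block, 9 with at least 1 on the log2 scale and 3 to 71 without 1 library. Same-numbered EV libraries correlated in their deviations at 0.108, -0.03 and 0.201, so the numbers were not taken as pairs. With the block 8736 genes changed in EV.

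With at least 1 on the log2 scale 21 of 45 lists kept their leading direction. Of the other 24, more members were then higher than lower in 12, with 0 lower for cytarabine handling, dNTP supply, CDK inhibitors and cyclins, heat shock, glycolysis and hypoxia, germline genes, proteasome, oxidative phosphorylation and kinesins. Among these, the NF-kB list had 5 lower, and the AP-1 and the TGF-beta list 1 each. In 10 lists 0 members passed, namely ribosomal proteins, aminoacyl-tRNA synthetases, cholesterol, fatty acid, Polycomb, replacement histone, unfolded protein response, translesion, PARP and fork genes. The integrated stress response and YAP lists were tied (2 and 2, 1 and 1). With the authors' factors 5 PARP genes and 84 ZNF genes rose, fewer than fell.

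Some values that did not pass changed sign. CCND1 was -0.06 with the authors' factors, -0.00 without a filter and -0.07 (without treated replicate 2) to 0.10 when 1 library was left out. B2M was -0.05 with the authors' factors and ran from -0.06 to 0.15 without 1 library. BAX ran from -0.15 to 0.04 and CCNE2 from -0.00 to 0.28. The cause was not tested. Depth limits low genes, since 7070 genes were not tested.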
